A study of Mus musculus with 2 samples.

Results

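The mouse mitochondrial genome carries 37 genes, and all of them were found among the 43346 Ensembl genes of the deposited tables by matching gene identifiers to chromosome M of GENCODE. They comprise 13 protein genes, 2 rRNA genes and 22 tRNA genes. The rule that chose them used no measured value, though earlier results of these data were known. The tables come from total RNA-seq of erythroid progenitor cells, the precursors of red blood cells, which the labels call CFU-Ery. They were primary cells of adult C57BL/6J male mice, 5 to 6 weeks of age, isolated with a bone marrow progenitor protocol per the labels, which name no genetic change or treatment. They form 1 group of 2 libraries, biological replicates 1 and 2, for which 1 ng of RNA, added spike-ins and a fragment size range of 150 to 400 bases are recorded. The labels tie the 2 biosamples to 1 donor record and do not say whether they came from separate animals, so the spread over the pair of libraries may be technical. With 1 group there is no contrast between conditions to test, and an exact two-sided sign-flip test over 2 libraries could not give a p below 0.5. The values below are therefore given by library, with SD over n = 2.

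Mitochondrial DNA is copied and transcribed inside the organelle. RNA polymerase reads nearly the whole circle in long transcripts from both strands, and enzymes cut these at the tRNA sequences that lie between most genes, which frees the mRNAs and rRNAs. The proteins are core subunits of the respiratory chain and the ATP synthase, and the remaining subunits come from nuclear genes. Developing red cells need mitochondria for haem synthesis and lose them on their way to becoming mature red cells.

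From mt-Tf to mt-Tp, the genes are packed almost without gaps. Of the 36 pairs of neighbours along the reference sequence (GRCm38, the build also called mm10), 9 overlapped, 12 abutted, 14 stood 1 to 5 bases apart and 1, mt-Tn and mt-Tc, stood 32 bases apart. The stretch that closes the circle, from mt-Tp back to mt-Tf, was not counted among these pairs. The 28 genes on the + strand are by convention the heavy-strand genes, and the 9 on the − strand, mt-Nd6 and 8 tRNA genes, the light-strand genes. Protein genes overlapped at mt-Atp8 and mt-Atp6 by 43 bases, at mt-Nd5 and mt-Nd6 by 14, at mt-Nd4l and mt-Nd4 by 7 and at mt-Atp6 and mt-Co3 by 1. The first 3 of these overlaps are printed here because the same bases belong to both genes and because the levels of these neighbours are compared below. Sequences were taken from the GENCODE M21 transcripts, run 5′ to 3′ on the strand of the gene, and have the shared bases in capitals.
mt-Atp8 end, chrM:7918-7969, + strand: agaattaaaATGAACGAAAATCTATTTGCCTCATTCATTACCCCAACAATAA
mt-Atp6 start, chrM:7927-7978, + strand: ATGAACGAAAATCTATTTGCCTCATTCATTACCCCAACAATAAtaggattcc
mt-Nd4l end, chrM:10144-10173, + strand: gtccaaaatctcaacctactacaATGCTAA
mt-Nd4 start, chrM:10167-10196, + strand: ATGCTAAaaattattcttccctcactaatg
mt-Nd5 end, chrM:13536-13565, + strand: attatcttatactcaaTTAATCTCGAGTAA
mt-Nd6 end, chrM:13552-13581, − strand: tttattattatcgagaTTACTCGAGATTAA
The mt-Atp8 and mt-Nd4l frames end inside the next gene. The mt-Nd5 and mt-Nd6 genes meet tail to tail, so their capitals are the same bases read from opposite strands.

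Some protein genes end without a full stop codon in the DNA. Of the 13 protein genes, 10 end in a complete stop codon and 3, mt-Co3, mt-Nd4 and mt-Cytb, end in a lone T, which polyadenylation is known to turn into a stop codon. Their last bases are printed with that T in capitals.
mt-Co3 end, chrM:9367-9390, + strand: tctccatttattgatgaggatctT
mt-Nd4 end, chrM:11521-11544, + strand: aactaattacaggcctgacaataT
mt-Cytb end, chrM:15265-15288, + strand: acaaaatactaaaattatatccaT
Each of the 3 is followed by a tRNA gene, mt-Tg and mt-Tt with no base between and mt-Th after 1 base. The first codon was ATG in 9 protein genes, GTG in mt-Nd1, ATA in mt-Nd2, ATT in mt-Nd3 and ATC in mt-Nd5.

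The 22 tRNA genes, 14 on the heavy and 8 on the light strand, had 0 expected counts in both libraries. Expected counts are the authors' estimates of reads per gene, which divide a read that fits several genes. The tRNA genes are 59 to 75 bases long, and each has an effective length of 0, which is the authors' count of the positions at which a fragment can start. The same was listed for 27798 entries of each table, of at most 88 bases, which held 15.91 counts in replicate 1 and 15.5 in replicate 2. The tRNA genes are thus listed at 0 and their level was not measurable in these tables. The 3 that frame the rRNA genes are printed, since cuts at them are known to free the rRNAs.
mt-Tf, tRNA for phenylalanine, chrM:1-68, + strand: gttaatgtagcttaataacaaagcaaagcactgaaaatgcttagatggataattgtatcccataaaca
mt-Tv, tRNA for valine, chrM:1025-1093, + strand: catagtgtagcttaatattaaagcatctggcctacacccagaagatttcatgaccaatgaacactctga
mt-Tl1, a tRNA for leucine, chrM:2676-2750, + strand: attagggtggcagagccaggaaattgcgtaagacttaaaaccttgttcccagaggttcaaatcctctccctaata
All 22 tRNA genes tie at 0, so none could be ranked by count.

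Parts of the mitochondrial genome also lie in nuclear chromosomes, as copies that moved there in evolution. Among nuclear genes, 13 annotated pseudogenes shared at least 100 runs of 25 bases with a mitochondrial gene, and 7 of these form a block on the − strand of chromosome 1 (chr1:24611535-24616197, 4663 bases). These 7 copy mt-Co1, mt-Co2, mt-Atp6, mt-Co3, mt-Nd3, mt-Nd4l and mt-Nd4, and 5 are identical to the mitochondrial gene over their whole length. The sequences show how little separates a copy from its parent gene. The capitals in mt-Atp6 are its stop codon, which lies past the annotated end of the copy, and those in the other pairs are mismatches. The chromosome 1 bases past that end were not compared, so the stop codon is not shown to differ.
mt-Atp6, last 30 bases, chrM:8578-8607, + strand: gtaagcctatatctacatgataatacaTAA
Gm10925, last 27 bases, chr1:24613974-24614000, − strand: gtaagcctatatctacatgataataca
mt-Nd3, first 30 bases, chrM:9459-9488, + strand: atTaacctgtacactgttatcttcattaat
Gm28438, first 30 bases, chr1:24613090-24613119, − strand: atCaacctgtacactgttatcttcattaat
mt-Co1 stretch, chrM:6381-6420, + strand: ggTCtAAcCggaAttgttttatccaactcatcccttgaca
Gm29216, first 40 bases, chr1:24616158-24616197, − strand: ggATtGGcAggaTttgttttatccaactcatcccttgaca
Counted from 1 at the start of the parent gene, with the parent's base first, Gm28438 differs from mt-Nd3 by T3C alone. Gm29216 covers bases 1054 to 1545 of mt-Co1 and differs by T1056A, C1057T, A1059G, A1060G, C1062A and A1066T, so that the remaining bases up to its end match. Of the other 6 pseudogenes, 3 lie on chromosome 2, 2 on chromosome 4 and 1 on chromosome 13. The mt-Co1 copy on chromosome 2, Gm13340, was 97.6% identical over 1545 bases.

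The members held nearly all counts of both libraries. They took 90.3% of the 143491647 expected counts of replicate 1 and 88.3% of the 110634458 of replicate 2, a mean of 89.3 ± 1.37% (SD, n = 2). The 95% Wilson intervals were 90.26 to 90.27% and 88.32 to 88.33% and cover counting error only, without molecular identifiers. The gap between the libraries was far wider than these intervals. They treat each count as a separate molecule, so the true counting error may be larger. Without the rRNA genes in numerator and denominator, the protein genes held 48.1% of the remaining counts in replicate 1 and 44.4% in replicate 2. In bulk RNA, fewer cells of a type and less RNA per cell cannot be told apart, so these shares describe the preparation and not a cell. Erythroid markers were at 1 TPM or more in both libraries for 8 of 8 genes (summed level 2605 and 2992 TPM in replicates 1 and 2), and so were 5 of 5 neutrophil and monocyte markers (495 and 674 TPM). For megakaryocytes 0 of 3 markers reached that level in both (1.93 and 2.51 TPM), for B cells 3 of 3 (14.6 and 16.6 TPM) and for T cells 1 of 2 (2.33 and 2.38 TPM). Mitochondrial rRNA takes most of the TPM total, so a marker under 1 TPM is not thereby absent. On TPM rescaled to nuclear protein-coding genes, Gp9 was at 66.0 and 31.8, Pf4 at 12.9 and 44.8 and Itga2b at 4.31 and 16.3. These are the megakaryocyte markers, and all 3 had counts in both libraries. Of the erythroid sum, Hbb-bs alone made up 2287 and 2623 TPM. By median, the erythroid markers were lower, at 56.8 and 61.0 TPM, than the neutrophil and monocyte markers, at 85.5 and 108.8 TPM. The part of other cell types in the mitochondrial values was not tested.

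The 2 rRNA genes encode the RNAs of the small (mt-Rnr1, ENSMUSG00000064337.1, chrM:70-1024) and large (mt-Rnr2, ENSMUSG00000064339.1, chrM:1094-2675) subunits of the mitochondrial ribosome. Levels of different genes are compared here as TPM, which divides counts by effective length and scales each library to a total of 1000000. mt-Rnr1 was at 364721 TPM in replicate 1 and 371193 in replicate 2, and mt-Rnr2 at 402993 and 376205. The large rRNA stood above the small one in both libraries, by a log2 ratio of 0.14 and 0.02 (0.08 ± 0.09), which is less than its own spread. Summed TPM of the rRNA genes was 6.02 and 6.25 times that of the 13 protein genes. mt-Nd1 (ENSMUSG00000064341.1, chrM:2751-3707), the first protein gene after the rRNA genes and separated from mt-Rnr2 by mt-Tl1 alone, was at 4923 and 5285 TPM. That is a log2 ratio to mt-Rnr2 of -6.36 and -6.15 (-6.25 ± 0.14).

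**Figure D1:**
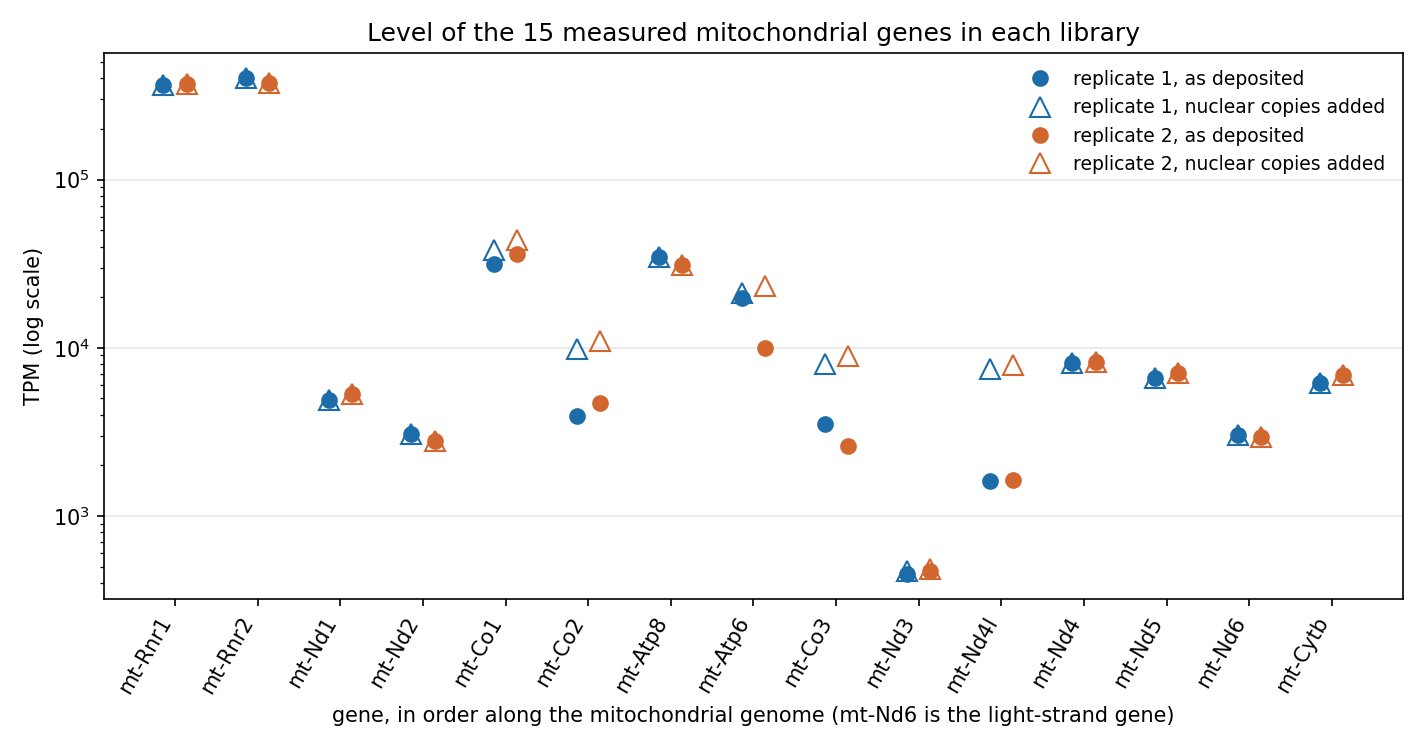
Level of the 15 mitochondrial genes with counts, in TPM on a log axis, in order along the genome; filled circles are deposited values and open triangles the values with the counts of nuclear copies added, 1 colour per library. The rRNA genes lie between 364721 and 402993 TPM, mt-Nd3 lies lowest at 450 and 471 TPM, and circles and triangles separate at mt-Co1, mt-Co2, mt-Co3, mt-Nd4l and, in replicate 2, mt-Atp6.

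Complex I, NADH dehydrogenase, passes electrons from NADH into the chain, and 7 of its subunits are mitochondrial genes. mt-Nd4 (chrM:10167-11544) was the highest of them at 8111 TPM in replicate 1 and 8185 in replicate 2, and mt-Nd5 (chrM:11742-13565) followed at 6619 and 7042 TPM. Both belong to the proton-pumping arm of the complex. mt-Nd2 (chrM:3914-4951) was at 3069.8 and 2792.8 TPM, and mt-Nd6 (chrM:13552-14070) at 3045 and 2929 TPM. These 2 overlapped across the libraries, with a log2 ratio of mt-Nd2 to mt-Nd6 of 0.01 and -0.07. mt-Nd4l (chrM:9877-10173) was at 1605 and 1634 TPM as deposited. mt-Nd3 (chrM:9459-9806) was the lowest protein gene of both libraries, at 450 and 471 TPM (461 ± 14.5), from 12636 and 10161 counts. The fold from the highest to the lowest heavy-strand protein gene was 77.0 in replicate 1, from mt-Atp8 to mt-Nd3, and 76.6 in replicate 2, from mt-Co1 to mt-Nd3.

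Complex III, the cytochrome bc1 complex, has a lone mitochondrial subunit, cytochrome b. mt-Cytb (chrM:14145-15288), the last protein gene of the heavy strand, was at 6142 and 6887 TPM (6515 ± 527). Its range overlaps that of mt-Nd5, with a log2 ratio of -0.11 in replicate 1 and -0.03 in replicate 2.

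Complex IV, cytochrome c oxidase, reduces oxygen to water, and its 3 mitochondrial subunits form the catalytic core. mt-Co1 (ENSMUSG00000064351.1, chrM:5328-6872), which binds the haem groups of the active site, was at 31625 and 36061 TPM. It took 45.4% and 50.8% of all protein gene counts, and 24.8% and 30.1% of their TPM. mt-Co2 (chrM:7013-7696), which receives electrons from cytochrome c, was at 3915 and 4693 TPM. mt-Co3 (chrM:8607-9390) was at 3544 TPM in replicate 1 and 2609 in replicate 2. The 3 subunits of 1 complex thus differed 8.08-fold and 7.68-fold between mt-Co1 and mt-Co2, and 8.92-fold and 13.8-fold between mt-Co1 and mt-Co3. With the counts of nuclear copies added to each gene, the folds of mt-Co1 were 3.86 and 3.99 over mt-Co2, and 4.76 and 4.90 over mt-Co3. Adding copies, here and below, treats every count on a copy as RNA of the mitochondrial gene, which was not tested.

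Complex V, the ATP synthase, has 2 mitochondrial subunits, both in its membrane part: ATP6, which forms the proton channel, and the small ATP8. mt-Atp8 (ENSMUSG00000064356.3, chrM:7766-7969) was at 34675 and 31009 TPM, a range that overlaps that of mt-Co1. mt-Atp6 (ENSMUSG00000064357.1, chrM:7927-8607) was at 19812 TPM in replicate 1 and 10024 in replicate 2. The effective length of mt-Atp8 was 72.31 and 69.25 of 204 bases, so its TPM rests on the fragment length model more than that of longer genes. By complex, median TPM was 27243 and 20516 in complex V, 6142 and 6887 in complex III, 3915 and 4693 in complex IV and 3070 and 2929 in complex I. By this median, complex V stood above the others in both libraries. Summed TPM was 54487 and 41033 in complex V and 39084 and 43363 in complex IV, so by sum their order changed between the libraries. Of protein gene counts, complex IV held 50.0% and 55.1% and complex V 13.6% and 7.6%. With copies added, the medians were 27894 and 27184 TPM in complex V, 9846 and 10935 in complex IV, 6142 and 6887 in complex III and 4923 and 5285 in complex I, which puts complex IV above complex III. As deposited, over the 6 heavy-strand genes of complex I, the log2 ratio of complex IV to complex I was -0.03 in replicate 1 and 0.22 in replicate 2, so complexes IV and I differed by less than the spread. With copies added it was 0.80 ± 0.04 (SD, n = 2).

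mt-Nd6 is the only protein gene of the light strand, and its base content shows it. In percent of bases on the coding strand, mt-Nd6 had 28.1% G and 5.97% C, while the 12 heavy-strand protein genes had 5.88 to 16.1% G and 22.1 to 29.97% C, with more C than G in all 12. GC content was 34.1% in mt-Nd6 and 31.9 to 41.1% in the 12. The median of the heavy-strand genes was 5533 and 6086 TPM, above the 3045 and 2929 TPM of mt-Nd6 by a log2 ratio of 0.86 and 1.06 (0.96 ± 0.14). That gap was wider than its spread, and 1.40 ± 0.08 with copies added. As deposited, 10 of 12 heavy-strand genes exceeded mt-Nd6 in replicate 1 and 8 of 12 in replicate 2, and with copies added 11 and 10 of 12. mt-Nd5, which meets mt-Nd6 tail to tail, was 2.17-fold and 2.40-fold above it, or 1.12 and 1.27 as a log2 ratio of TPM. mt-Nd6 held 1.19% and 1.11% of protein gene counts. Whether strand was used in the counting is not given in the sources used here. Sense reads of mt-Nd6 and antisense reads from the heavy-strand transcript across it therefore cannot be told apart.

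Neighbouring genes differed in deposited level, and the gap changed where a nuclear copy holds counts. mt-Nd4l and mt-Nd4 are known to share a mature mRNA, and so are mt-Atp8 and mt-Atp6. mt-Nd4 was 5.05-fold and 5.01-fold above mt-Nd4l in TPM, and 1.09-fold and 1.03-fold with copies added. On counts per kb of annotated length with copies added, the log2 ratio was 0.85 and 0.80, so the near match rests on the length correction. mt-Atp6 over mt-Atp8 had a log2 ratio of -0.81 in replicate 1 and -1.63 in replicate 2 in TPM, and of -0.72 and -0.41 with copies added. On counts per kb with copies added, mt-Atp6 stood above mt-Atp8, by 0.46 and 0.82, so the order of this pair depends on the length correction. mt-Co2 over mt-Co3 had log2 ratios of 0.14 and 0.85 as deposited, and of 0.30 and 0.30 with copies added. The copies of mt-Nd2, mt-Nd5 and mt-Cytb held at most 3.32 counts, and mt-Nd1 has none, so adding copies left the ratios among these genes as they were. Of these, mt-Nd1 exceeded mt-Nd2 by a log2 ratio of 0.68 and 0.92.

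Correlations of level with position along the heavy-strand transcript were near 0. Over the 12 heavy-strand protein genes, log2 TPM had a Pearson r with the start position of -0.14 and -0.13 and a Spearman rho of -0.04 and -0.09. With copies added, r was -0.12 and -0.10. With gene length, r was 0.31 and 0.37 as deposited and 0.15 and 0.16 with copies added. These are descriptions over 12 genes of the same libraries and transcript, with no test.

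The nuclear copies were listed with counts of their own. All 13 pseudogenes together had 2226946 counts in replicate 1 and 2722324 in replicate 2, or 1.55% and 2.46% of each library, of which 1970 and 2073 lay outside the chromosome 1 block. Added to the members, they make 91.8% and 90.8% of counts. For scale, all nuclear protein-coding genes together held 4717790 and 4093202 counts. In 6 of the 7 pairs, the chromosome 1 copy held over 1% of the pair's counts in both libraries.

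The division differed from pair to pair. mt-Co1 had 5892045 and 5240313 counts and Gm29216 1194070 and 1099351, or 16.9% and 17.3% of the pair on the copy. Gm29216 spans only 492 of the 1545 bases of mt-Co1, so this share sets a part against the whole. In TPM, which allows for length, the copy was at 25367 and 30160 beside 31625 and 36061 of mt-Co1. mt-Co2 had 283705 and 264223 counts and Gm28661 429652 and 351390, so the copy held 60.2% and 57.1%. mt-Co3 had 303673 and 173862 counts and Gm28437 381287 and 419417, which put 55.7% and 70.7% on the copy. In these 2 pairs the pseudogene was listed above the gene in both libraries. mt-Nd4l had 34291 and 26717 counts and Gm10222 125088 and 102746, which put 78.5% and 79.4% on the copy, the largest share among the 7 pairs in both libraries. At the lowest shares, Gm28439, which copies 876 of the 1378 bases of mt-Nd4, had 658 and 360 counts beside 1332057 and 1048067 of mt-Nd4, and Gm28438 had 499 and 293 beside those of mt-Nd3. Identity of sequence thus went with a large part on the copy for mt-Nd4l and a very small part for mt-Nd4, and the cause was not tested.

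**Figure D2:**
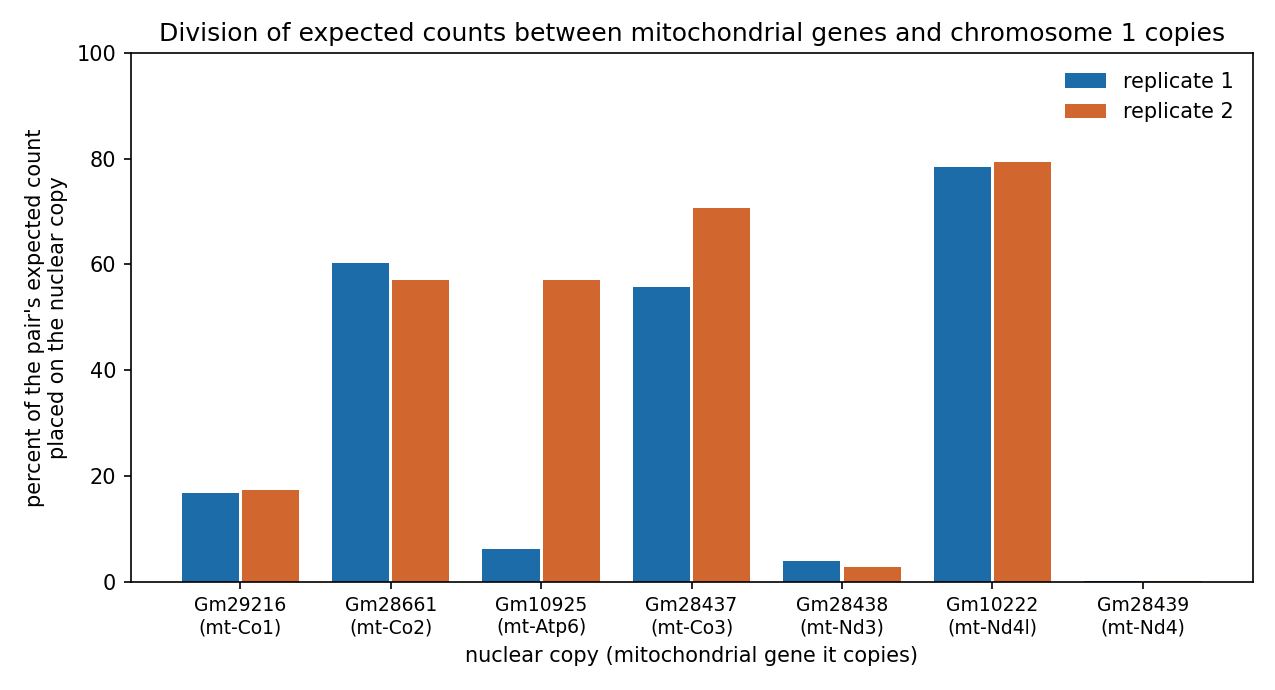
Percent of the expected counts of each pair that lie on the chromosome 1 copy, with 1 bar per library and the mitochondrial parent gene in brackets. The bars of mt-Atp6 and its copy Gm10925 are 6.16% in replicate 1 and 57.1% in replicate 2, while those of mt-Nd4 are too low to see at 0.049% and 0.034%. The copies of mt-Co1 and mt-Nd4 span only part of the gene, and the percentages are not corrected for length.

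mt-Atp6 was the pair in which the libraries parted. It had 1427690 counts in replicate 1 and 561246 in replicate 2, and Gm10925 had 93721 and 746696. The copy held 6.16% of the pair in replicate 1 and 57.1% in replicate 2, while the sum of the pair was 1521411 and 1307942. For the pairs of mt-Atp6, mt-Co3, mt-Nd3, mt-Nd4l and mt-Nd4 this sum was whole within 0.05 counts in both libraries, although the parts were fractions. The authors' posterior SD of the count was the same for mt-Atp6 and Gm10925, at 118317 and 155555 counts, which is 8.29% and 27.7% of the mt-Atp6 count. It reached 51.1% and 80.5% of the count for mt-Co3, 35.8% and 33.5% for mt-Co2 and 44.8% and 34.8% for mt-Nd4l. For mt-Rnr1, mt-Rnr2, mt-Nd1, mt-Atp8, mt-Nd5, mt-Nd6 and mt-Cytb it was at most 1.56 counts. The widest estimates were thus those of the 4 genes whose identical copy spans nearly the whole gene. For mt-Nd4, with a shorter identical copy, the posterior SD was 58.35 and 34.56 counts, and for mt-Co1, with a partial copy that has mismatches, 692 and 682.

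With copies added, the levels in order were 40842 ± 3957 TPM for mt-Co1, 32842 ± 2595 for mt-Atp8, 22236 ± 1590 for mt-Atp6 and 10391 ± 770 for mt-Co2 (SD, n = 2 each). The mt-Co1 level counts all of Gm29216 as mt-Co1 RNA, which was not tested. For Gm29216, which has mismatches to mt-Co1, the posterior SD was only 0.058% and 0.062% of its count in replicates 1 and 2. mt-Co3 followed at 8449 ± 643 TPM, mt-Nd4 at 8151 ± 51.3 and mt-Nd4l at 7690 ± 324. Of these 3, mt-Co3 and mt-Nd4 overlap in range. mt-Nd5, mt-Cytb, mt-Nd1, mt-Nd6 and mt-Nd2 came next at their deposited levels of 6830 ± 299, 6515 ± 527, 5104 ± 256, 2987 ± 81.6 and 2931 ± 196 TPM, where mt-Nd5 overlaps mt-Cytb and mt-Nd6 overlaps mt-Nd2. mt-Nd3, at 476 ± 11.5 TPM, remained the lowest, 17.1-fold and 18.4-fold below its neighbour mt-Co3.

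Apart from mt-Atp6, every measured member differed by less than 2-fold between the libraries. Over the 15 members with counts, log2 TPM of the libraries had a Pearson r of 0.993 and a Spearman rho of 0.982, and with copies added of 0.999 and 0.993. The log2 ratio of replicate 1 to replicate 2 on log2(TPM + 1), centred on the median of all genes with a mean count of at least 20, ran from -0.22 for mt-Co2 to 1.03 for mt-Atp6, with a median of 0.02 over the 15. More than 2-fold apart was 1 of the 15, mt-Atp6, against 62 of 9878 genes in all (0.628%). The added 1 understates differences of low genes, such as Fastkd2, at 1.12 and 0.21 TPM with a log2 ratio of 0.85. The share over all genes is therefore not a like background for the members, which have far higher TPM. With a single member over the line, the count also says little about the members as a group. Of the 15, 14 lay within a log2 ratio of 0.5 either way, and mt-Co3 was the widest of these at 0.49. With copies added, mt-Atp6 was at -0.10 and mt-Co3 at -0.11, the range was -0.15 to 0.21, and 0 of 15 were more than 2-fold apart.

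**Figure D3:**
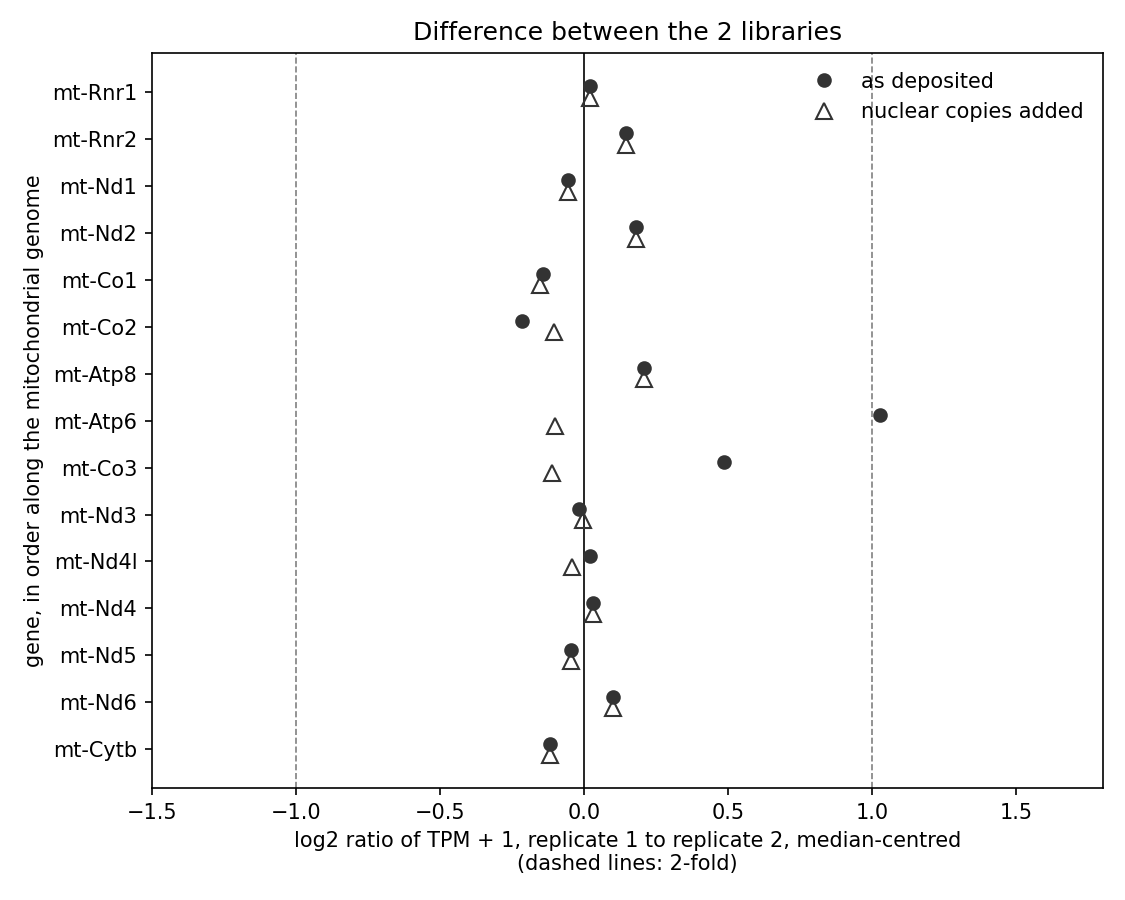
Median-centred log2 ratio of TPM + 1, replicate 1 to replicate 2, for the 15 members with counts; circles are deposited values, triangles have nuclear copies added and dashed lines mark 2-fold. mt-Atp6 lies past the line at 1.03 as deposited and at -0.10 with its copy added, and mt-Co3 at 0.49 as deposited and at -0.11 with its copy added.

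The nuclear subunits that join the mitochondrial ones in the same complexes were far lower in TPM. Of 23 listed nuclear subunit genes, 22 were matched and 21 were at 1 TPM or more in both libraries. Median TPM was 4923 and 5285 over the 13 mitochondrial genes, against 2.98 and 3.10 over the 22 nuclear genes. The ratio of these medians was 1655-fold in replicate 1 and 1705-fold in replicate 2, a log2 ratio of 10.71 ± 0.03, and 11.31 ± 0.02 with copies added. By complex, the fold was 4801 and 3528 in complex V, 2736 and 2805 in complex III, 2074 and 1220 in complex I and 799 and 795 in complex IV. With copies added, the fold was 4915 and 4675 in complex V, 2736 and 2805 in complex III, 3326 and 2202 in complex I and 2009 and 1853 in complex IV, and complexes III and I changed places between the libraries. In counts per kb, complex V was 2774-fold and 1768-fold above its nuclear genes and complex III 2692-fold and 2765-fold, so the order of these 2 also changed between the libraries. The highest nuclear subunits were Atp5b, the catalytic beta subunit of the ATP synthase, at 21.2 ± 4.67 TPM, Cox4i1 at 10.03 ± 0.990 and Cox6a1 at 7.86 ± 2.19, both of complex IV. The lowest were Ndufs8 at 0.945 ± 0.021 and Ndufs3 at 1.485 ± 0.290 TPM, both of complex I. These are levels of RNA, and protein was not measured.

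**Figure D4:**
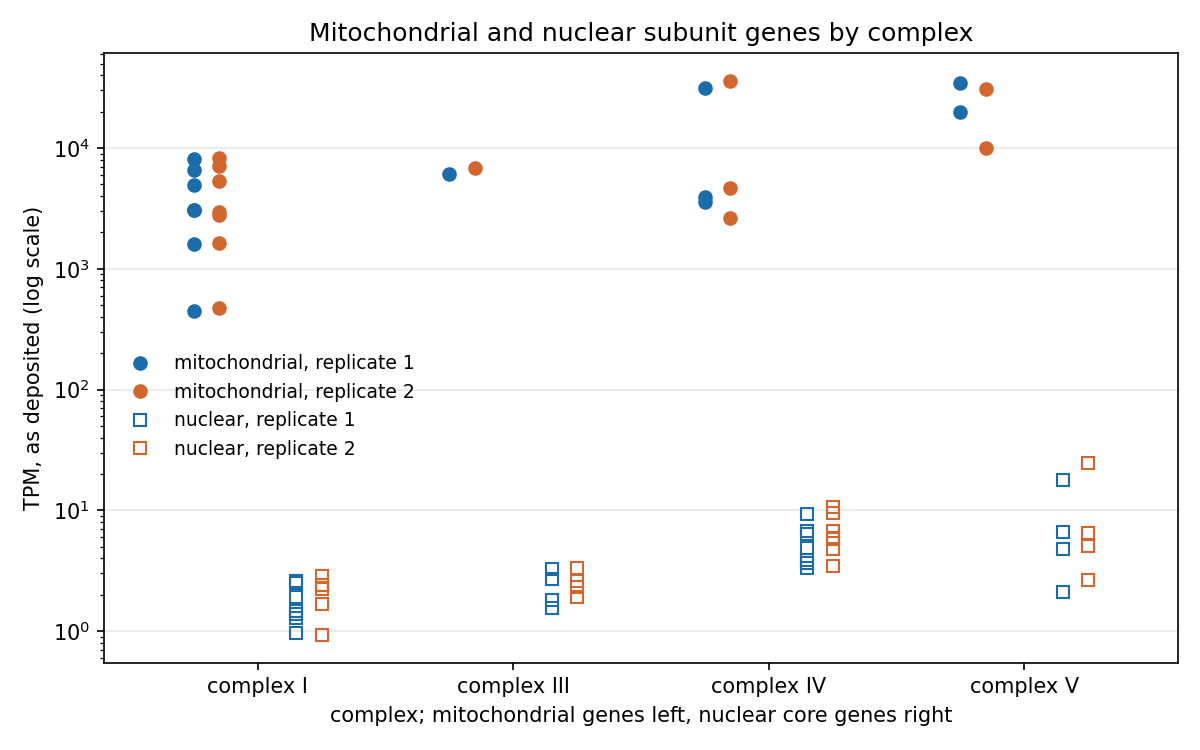
TPM of mitochondrial (filled circles, left) and listed nuclear (open squares, right) subunit genes of each complex on a log axis, 1 colour per library. The lowest mitochondrial gene, mt-Nd3 at 450 and 471 TPM, lies above the highest nuclear subunit, Atp5b at 17.94 and 24.54 TPM.

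Genes for mitochondrial transcription, RNA processing and decay were lower still. Of 46 listed genes, all were matched, 44 had counts in both libraries and 2 were at 1 TPM or more in both, Mrm1 and Rexo2. The median was 0.24 TPM in replicate 1 and 0.275 in replicate 2, on a scale in which mitochondrial rRNA takes most of the total. Mrm1, which methylates the large mitochondrial rRNA, was highest at 1.70 ± 0.184 TPM, followed by Rexo2, which degrades short RNA fragments, at 1.46 ± 0.453 and Fastk at 1.43 ± 0.622. Mrm2, another methyltransferase of the large rRNA, was lowest at 0.055 ± 0.064 TPM, from 2 and 14 counts, and Fastkd1 and Nsun4 tied next at 0.06. The mitochondrial RNA polymerase gene Polrmt, named here after its values were seen, had 22 counts in replicate 1 and 0 in replicate 2, and Tfam, which packs mitochondrial DNA and helps to start its transcription, had 222 and 89.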

How the data were processed

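Total RNA-seq of 2 libraries was used, with a gene and a transcript table for each. The authors aligned each library to the transcriptome and quantified GENCODE M4 genes on mm10, per the deposited notes that describe the files. The sources used here do not give the aligner, the quantifier, any version or whether strand was used. Per the file headers, the authors' expected counts are estimates of reads, which can be fractions. Their deposited TPM has a fixed total over a table, so that mitochondrial rRNA sets the scale of every other gene, and their deposited FPKM also corrects for length and library size. The deposited isoform percent is a transcript's part of its gene's TPM and was used in no result. The deposited posterior SD of a count and the bounds of credibility intervals were treated as a score; the bounds were not used.

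Names, positions (1-based) and sequences came from GENCODE M21 on GRCm38. Nuclear copies were nuclear genes with at least 100 runs of 25 bases in common with a mitochondrial gene, and their counts were added to the parent gene and divided by its effective length. That the counts of the copies come from mitochondrial RNA was assumed and not tested. Log ratios between the libraries used log2(TPM + 1), which understates differences of low genes. They were centred on the median over genes with a mean count of at least 20, a shift of -0.05. The 2-fold call was tested on simulated data with counting noise alone. The genes changed in it were drawn from a middle range of TPM, so it does not cover changes of low genes or of most members. The simulation did not model the division of reads between a gene and its copy, so it does not test the call of mt-Atp6. For size factors, fractions in the expected counts were rounded off. The rule for named genes took the protein and rRNA genes, the 5 tRNA genes highest and the 5 lowest in count, the 5 nuclear copies with most counts, and the 3 highest and 2 lowest of each nuclear list. Its tRNA part could not be applied, since all tRNA counts are 0, and the 3 tRNA genes printed were chosen for their place beside the rRNA genes. Gm28439, Gm28438, Gm13340, Polrmt and Tfam were added after their values were seen. The members and the lists were chosen with earlier results of these data known. Alternatives were other units, minimum levels, centrings, a pseudocount of 0.1, copies added and each library alone. Size factors came from DESeq2 1.42.0 and edgeR 4.0.16 in R 4.3.3. Tables and figures were made with Python 3.11.15 and its packages pandas 2.3.3, numpy 2.4.6, matplotlib 3.10.9 and scipy 1.17.1.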

Additional observations from a re-analysis of the deposited data

How the results depend on the processing

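Across 12 results and 66 alternatives, 37 values stayed within the spread between the libraries (or kept their count or their side of the 2-fold line), 26 moved, 2, both of mt-Atp6, moved and turned in direction and 1 fell under its 2-fold line. Many of the 37 could not have come out otherwise. Each of 2 libraries alone always lies within the SD of their mean. Ratios in FPKM equal those in TPM within a library, and tRNA counts of 0 stay 0 under any minimum. The 37 are therefore no measure of how robust the results are. Summing copies in counts per kb, adding copies to the share, to the count over 2-fold and to the nuclear comparison were chosen after seeing the data. The share of 89.3% was 46.3% without rRNA genes and 91.3% with copies added. As log2 ratios, mt-Rnr2 over mt-Rnr1 (0.08) was 0.17 in counts per kb. Heavy-strand genes over mt-Nd6 (0.96) were 1.20 in counts per kb and 1.40 with copies. Complex IV over I (0.09), which was less than its spread, was -0.014 in counts per kb, 0.43 in posterior mean TPM, 0.80 with copies and 0.96 with copies in counts per kb. mt-Atp6 over mt-Atp8 (-1.22) was -0.017 in counts per kb and -0.56 with copies, and turned to 0.64 with copies in counts per kb. mt-Nd4 over mt-Nd4l (2.33) was 3.07 in counts per kb, 2.06 in posterior mean TPM, 0.085 with copies and 0.83 with copies in counts per kb. The log2 spread of heavy-strand genes (6.26) was 6.79, 6.30, 6.42 and 7.01 in the same order. Mitochondrial over nuclear subunits (10.71) was 10.76 in counts per kb and 11.31 with copies.

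Members over 2-fold apart (1) were 0 without centring and 0 with copies. mt-Atp6 between the libraries (1.03) was 1.14 with TMM, 1.13 with DESeq2 size factors, 0.98 without centring and -0.10 with copies. The genes for mitochondrial expression at 1 TPM (2) were 29 at 0.1 TPM, 41 on TPM rescaled to nuclear protein-coding genes, and 5 in each library alone. With each library alone, the share was 88.3 to 90.3%, mt-Rnr2 over mt-Rnr1 0.02 to 0.14, heavy-strand genes over mt-Nd6 0.86 to 1.06, complex IV over I -0.03 to 0.22, and mt-Atp6 over mt-Atp8 -1.63 to -0.81. mt-Nd4 over mt-Nd4l was 2.32 to 2.34, the spread 6.259 to 6.267, and the nuclear comparison 10.69 to 10.74. tRNA genes with counts were 0 under every count minimum tried and in each library alone.

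The cause of these moves was not tested beyond what each alternative changes by its construction. The heavy-strand share of tRNA counts has no value, since all tRNA counts are 0, and ratios between the libraries cannot be had with 1 left out. No paired analysis was possible because there is 1 group. Depth was not varied, so what it limits was not tested.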
